A study of Mus musculus with 9 samples.

Results

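The enzymes described here break down amino acids. They are 39 genes, picked by name as steps in the catabolism of branched-chain amino acids (19 genes), glycine (6), proline (3), aromatic amino acids (4), lysine (3) and sulfur amino acids (3), with the shared transaminase Got2. All 39 were found among the 23420 rows of the deposited expression table, and all 39 were among the 15098 genes tested, whose mean over the 9 libraries was 10 normalized counts or more. RNA was sequenced from renal cortex of male mice of the C57/BL6 strain, with 1 library per mouse. The fasted group (n = 4) had gone without food for 16 h before the kidneys were taken, and the fed group (n = 5) ate ad libitum. Chow was the diet of both groups, apart from the fast, and the age of the mice is not given in the sources used here. A normalized count is a read count divided by the library's size factor. Differences are log2(normalized count + 1), fasted minus fed, with the standard error (SE). Adjusted p-values are from limma, two-sided, with Benjamini-Hochberg adjustment over all 15098 genes, and a gene is said to have risen or fallen only where this value was under 0.05.

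Kidney proximal tubule cells take back filtered amino acids, and their mitochondria hold much of the machinery that degrades them. Each route removes the amino group and feeds the carbon skeleton into the citric acid cycle, ketone bodies or one-carbon units. The glycine cleavage system splits glycine into carbon dioxide, ammonia and a folate-bound one-carbon unit. The branched-chain ketoacid dehydrogenase complex commits leucine, isoleucine and valine to oxidation, and transsulfuration turns homocysteine into cysteine. In mammals many steps of these routes are known from liver or kidney, and the routes are regulated by diet and by hormones of fasting and feeding.

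Few of these transcripts passed the test between fasted and fed kidneys. Of the 39, 1 rose (Gldc) and 4 fell (Gcsh, Bcat2, Dbt and Cbs) in fasted kidneys, which is 12.8% of them, against 11% of all genes tested (5.72% higher and 5.25% lower). The share is near that background and is therefore not a result about these enzymes as a group. Their median log2 difference was -0.04, against 0.00 for all tested genes, and 17 of the 39 had a positive and 22 a negative difference. For 30 of the other 34 genes the 95% interval of the log2 difference lay within 0.5 of 0 on either side, and Mccc1, Aldh4a1, Hpd and Aadat were the exceptions. It lay within 0.25 of 0 for 7 of the 34, and the differences of Dbt, Bcat2 and Gcsh, which passed, were themselves smaller than 0.5. The count was 3 without fasted 4 and 8 without fed 5, where 861 and 1956 of all tested genes passed, against 1656 with every library. It was 2 without fed 3 and fasted 1 together, where 1068 of all tested genes passed. DESeq2 on the recovered reads and voom with quality weights each called 8, against 15.6% and 17.9% of all genes with these tools, and edgeR on the recovered reads called the same number as limma, 5, against 11% of all genes.

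**Figure D1:**
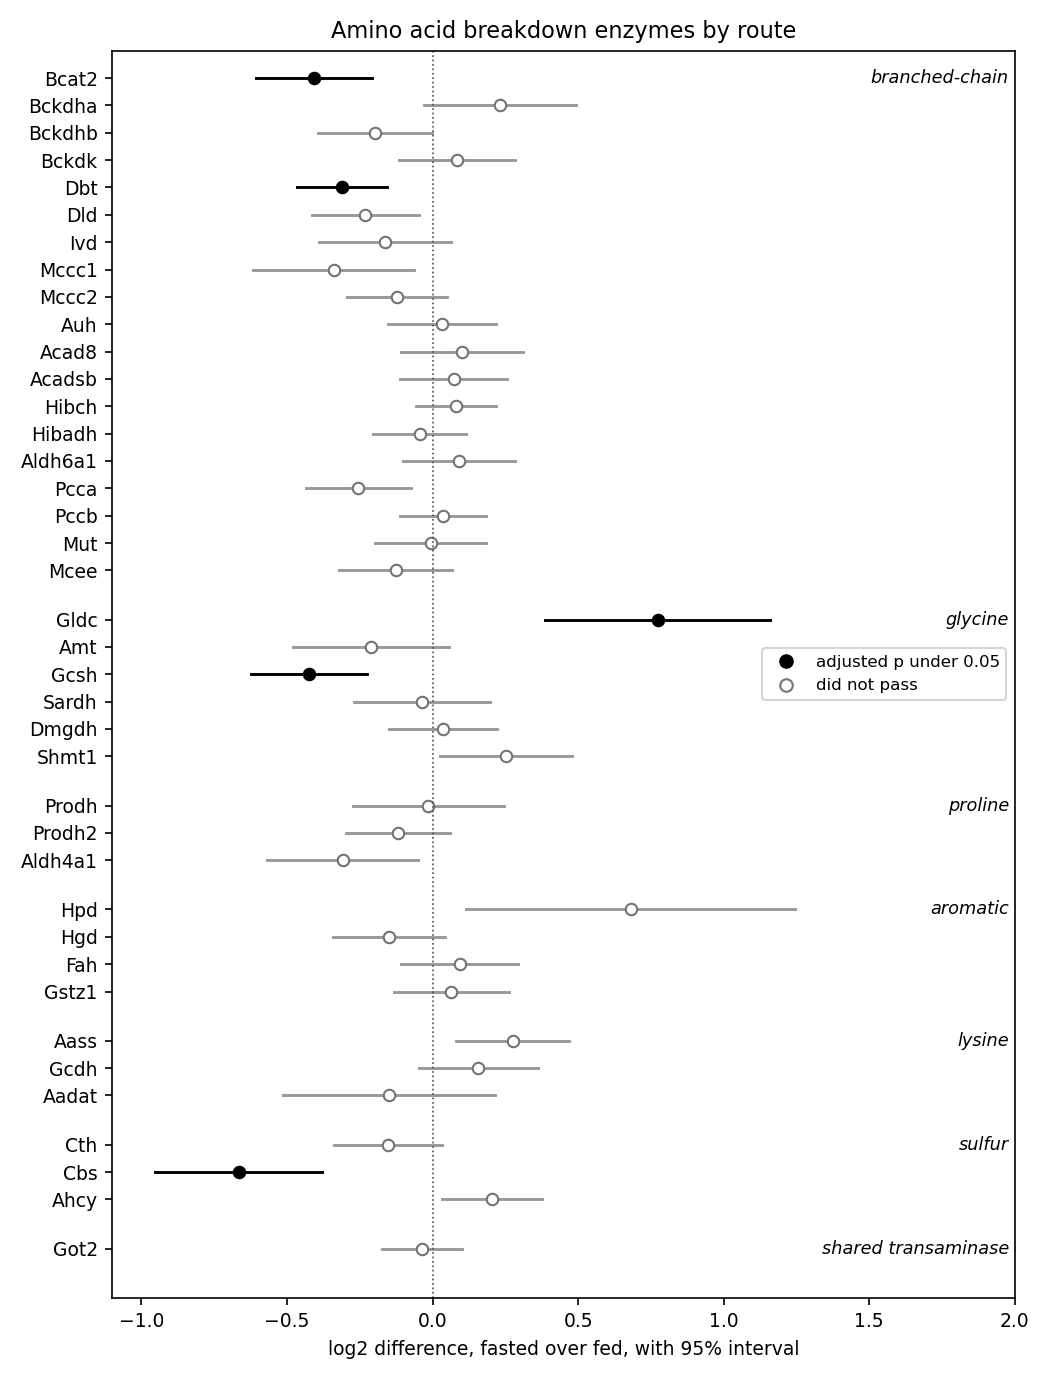
Log2 difference between fasted (n = 4) and fed (n = 5) kidneys for each of the 39 enzymes, grouped by route down the page, with the horizontal axis in log2 units; points are limma estimates and lines are their 95% intervals. Filled points mark the 5 genes with an adjusted p under 0.05, of which Gldc lies at 0.77 and Cbs at -0.67, and the intervals of most open points cross 0.

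The rise and one of the falls belonged to the same enzyme complex. Glycine cleavage needs 4 proteins: the P-protein (Gldc), which decarboxylates glycine, the lipoyl-carrying H-protein (Gcsh), the folate-dependent T-protein (Amt) and the L-protein dihydrolipoamide dehydrogenase (Dld), which other complexes share. Gldc lies on chromosome 19 (30098447 to 30175429, minus strand) and Gcsh on chromosome 8 (116981810 to 116993537, minus strand), in GENCODE M21 on GRCm38. The 250 bases before each RefSeq start are shown here for both genes and for Cbs, which had the largest fall among the 39, because these 3 genes had the largest differences among those that passed the test. Capitals mark GC boxes, the letters GGGCGG on either strand (CCGCCC on the other). The windows are from RefSeq on GRCm38.p6, printed 5′ to 3′ on the gene's strand, which is the minus strand in each case: chr19:30175442-30175691 for Gldc, chr8:116993499-116993748 for Gcsh and chr17:31637206-31637455 for Cbs.
Gldc: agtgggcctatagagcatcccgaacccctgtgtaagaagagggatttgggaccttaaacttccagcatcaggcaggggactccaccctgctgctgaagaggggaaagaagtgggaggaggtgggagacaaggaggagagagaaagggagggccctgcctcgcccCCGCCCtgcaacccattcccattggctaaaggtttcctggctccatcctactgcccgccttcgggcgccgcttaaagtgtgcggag
Gcsh: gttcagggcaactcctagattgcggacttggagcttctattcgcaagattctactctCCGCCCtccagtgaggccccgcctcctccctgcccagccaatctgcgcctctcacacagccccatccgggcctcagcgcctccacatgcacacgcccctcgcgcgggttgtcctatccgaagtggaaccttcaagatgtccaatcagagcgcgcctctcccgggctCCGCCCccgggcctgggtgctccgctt
Cbs: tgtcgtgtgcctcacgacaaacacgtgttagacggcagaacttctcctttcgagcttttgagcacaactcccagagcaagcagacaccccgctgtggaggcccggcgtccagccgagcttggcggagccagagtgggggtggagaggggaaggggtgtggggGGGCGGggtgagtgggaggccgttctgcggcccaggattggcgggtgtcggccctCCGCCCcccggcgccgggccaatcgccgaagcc
The Gldc window held 1 GC box, and those of Gcsh and Cbs held 2 each. GC boxes were found in 32.7% of all 32851 promoter windows searched at the same length, and in 22 of 41 windows of the 36 enzymes that matched the promoter table. The other motifs searched on both strands were AGGTCA (nuclear receptor half-site), AGAACA (steroid receptor half-site), GTAAACA (FoxO core) and TGACGTCA (cyclic AMP response element), found in 14%, 16.1%, 3.17% and 1.55% of all windows. In the 41 windows of the 36 enzymes, these 4 motifs were found in 10, 3, 1 and 0 windows, in that order. None of the 4 occurs in the 3 windows printed. Dbt, Mut and Cth were not in the promoter table.

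Gldc had 6117, 10041, 8340 and 8364 normalized counts in fasted kidneys, against 4698, 5790, 6162, 3698 and 3829 in fed kidneys. Every fasted kidney but fasted 1 lay above all fed kidneys, and fasted 1 lay just under fed 3, so the groups overlapped. The log2 difference was 0.77 (SE 0.18, limma adjusted p = 0.0186), and it no longer passed without fasted 2 (limma adjusted p = 0.056) or without fasted 4 (0.055). Gcsh had 1563, 1726, 1817 and 1622 normalized counts in fasted kidneys, against 2528, 2388, 2185, 2381 and 1856 in fed kidneys. All 4 fasted kidneys were below all 5 fed ones, although fasted 3 and fed 5 were close. Gcsh fell by 0.42 on the log2 scale (SE 0.09, limma adjusted p = 0.0140), and it did not pass without fed 3 and fasted 1 (0.056). In bulk tissue, fewer cells of a type and less RNA per cell cannot be told apart.

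Gldc and Gcsh therefore differed in opposite directions between fasted and fed kidneys. The ratio of Gldc to Gcsh normalized counts was 3.91, 5.82, 4.59 and 5.16 in fasted kidneys, against 1.86, 2.42, 2.82, 1.55 and 2.06 in fed kidneys, which describes these libraries and was given no test. The lowest fasted ratio was above the highest fed one. This adds no support of its own, because a gene that rose over a gene that fell in the same libraries tends to give such a ratio. Per kilobase of annotated exon, Gldc averaged 1349 normalized counts in fasted and 794 in fed kidneys, and Gcsh averaged 1065 in fasted and 1436 in fed kidneys. On that scale Gldc was the higher of the pair in fasted kidneys and the lower in fed kidneys. Amt had a log2 difference of -0.21 (limma adjusted p = 0.29) and Dld one of -0.23 (0.10), and neither passed. Dld passed without fed 5 (limma adjusted p = 0.023) and with voom with quality weights (0.036). Both called genes have short matches elsewhere in the genome, and reads from those stretches are uncertain. Gcsh matches the pseudogene Gm37201 at 96.5% over 255 bases, and Gldc matches 4 other genes at 95.5% to 96% over 200 to 206 bases.

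The other genes of the glycine route serve its supply and use of one-carbon units. Dmgdh and Sardh, which strip methyl groups from dimethylglycine and sarcosine, had log2 differences of 0.04 and -0.04. Shmt1, the cytosolic enzyme that interconverts serine and glycine, averaged 2417 ± 308 normalized counts in fasted and 2027 ± 226 in fed kidneys (SD), a log2 difference of 0.25 that did not pass (limma adjusted p = 0.15). Sardh was the most abundant of the 6 per kilobase, at 2420 in fasted and 2505 in fed kidneys.

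**Figure D2:**
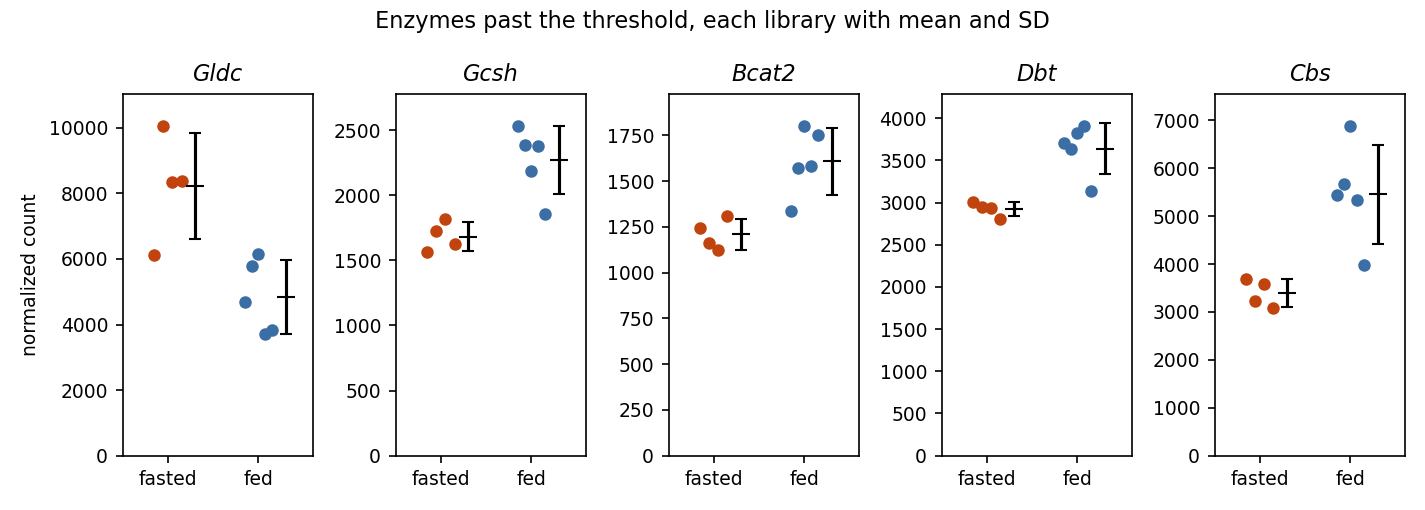
Normalized counts in each library for the 5 enzymes that passed the test, with fasted (n = 4) to the left of fed (n = 5) in each panel and the vertical axis starting at 0; points are libraries, and bars are group means with SD. Fasted points lie below all fed points for Gcsh, Bcat2, Dbt and Cbs, and fasted points lie above fed points for Gldc apart from fasted 1 at 6117, which is under fed 3 at 6162.

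Branched-chain amino acids are first transaminated, then decarboxylated by the ketoacid dehydrogenase, and then oxidized in amino-acid-specific steps. Both entry steps had a gene that fell, and no gene of the later steps passed, but the steps were not tested against each other. The later-step gene Mccc1 had a log2 difference of -0.34 without passing, against -0.31 for Dbt, which passed. Bcat2, the mitochondrial branched-chain transaminase (chromosome 7, 45570153 to 45589711, plus strand), had 1244, 1159, 1123 and 1309 normalized counts in fasted kidneys, against 1337, 1572, 1798, 1581 and 1754 in fed kidneys. The groups did not overlap, with fasted 4 and fed 1 the nearest pair. Bcat2 fell by 0.41 on the log2 scale (SE 0.09, limma adjusted p = 0.0165), and it did not pass without fasted 3 (0.054) or without fed 3 and fasted 1 (0.053). It shares 622 exon bases, 15.9% of its annotated exon length, with the antisense gene 0610005C13Rik. That gene fell too, with 1856 ± 164 normalized counts in fasted and 2437 ± 324 in fed kidneys (SD) and a log2 difference of -0.39 (limma adjusted p = 0.030). Whether counting used the strand is not given in the sources used here, so reads of this pair cannot be told apart.

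Dbt encodes the E2 core of the ketoacid dehydrogenase complex, which carries the acyl group (chromosome 3, 116513070 to 116549981, plus strand). It had 3011, 2946, 2935 and 2806 normalized counts in fasted kidneys, against 3710, 3632, 3823, 3902 and 3132 in fed kidneys. All fasted kidneys were below all fed ones, and fed 5 was the lowest of the fed kidneys. Dbt fell by 0.31 on the log2 scale (SE 0.07, limma adjusted p = 0.0180), and it did not pass without fasted 4 (0.063) or without fed 3 and fasted 1 (0.056). The other subunits did not pass: the E1 alpha gene Bckdha had a log2 difference of 0.23 (limma adjusted p = 0.24), the E1 beta gene Bckdhb -0.20 (0.19) and the E3 gene Dld -0.23 (0.10, with the passes without fed 5 and with voom given above). Bckdha shares 1171 exon bases, 61.7% of its exon length, with B3gnt8 on the opposite strand. B3gnt8 itself had 95.2 ± 16.6 normalized counts in fasted and 71.4 ± 8.82 in fed kidneys, far below Bckdha at 7748 ± 333 in fasted and 6678 ± 1191 in fed kidneys (SD). Bckdk, the kinase that switches the complex off by phosphorylating E1 alpha, had a log2 difference of 0.08, and Ppm1k, the phosphatase that switches it on, had one of -0.05.

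Downstream of the complex, 13 of the 19 branched-chain genes remained, from Ivd onwards. None of these 13 passed, and their log2 differences ran from -0.34 (Mccc1) to 0.10 (Acad8). Mccc1 and Mccc2 encode the alpha and beta subunits of methylcrotonyl-CoA carboxylase in the leucine route. Mccc1 averaged 2964 ± 251 normalized counts in fasted and 3796 ± 786 in fed kidneys (SD), with no overlap and a log2 difference of -0.34 (limma adjusted p = 0.11). Its fed values include 5162 in fed 3, where the next fed value was 3713. Mccc2 averaged 2726 ± 41.4 in fasted and 2981 ± 318 in fed kidneys, a log2 difference of -0.12 (limma adjusted p = 0.34). Propionyl-CoA carboxylase, used for isoleucine and valine, had Pcca (alpha) at -0.25 (limma adjusted p = 0.072, no overlap) and Pccb (beta) at 0.04 (0.77). Fed 3 was again the highest fed value for Pcca, at 3845, with the next at 3246. The ratio of Mccc1 to Mccc2 normalized counts was 1.09 ± 0.08 in fasted and 1.28 ± 0.30 in fed kidneys (SD). That of Pcca to Pccb was 0.434 ± 0.054 in fasted and 0.531 ± 0.058 in fed kidneys. Fasted and fed kidneys overlapped in both ratios, and no difference between subunits was tested. Pcca passed with DESeq2 on the recovered reads, with voom with quality weights and after scaling to reads without Rn45s.

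The remaining branched-chain steps did not pass. Ivd, the isovaleryl-CoA dehydrogenase, had a log2 difference of -0.16 (limma adjusted p = 0.35), and it passed without fed 5 at -0.25 (0.030). Log2 differences were 0.03 for Auh, the methylglutaconyl-CoA hydratase, and 0.07 for Acadsb, which acts on the isoleucine intermediate. In the valine route they were 0.10 for Acad8, 0.08 for Hibch, -0.04 for Hibadh and 0.09 for Aldh6a1. For Mut and Mcee, which carry methylmalonyl-CoA to succinyl-CoA, they were -0.01 and -0.13. Aldh6a1, the methylmalonate semialdehyde dehydrogenase, was the second most abundant of the 39 per kilobase, at 5354 normalized counts in fasted and 5041 in fed kidneys. Auh was the least abundant per kilobase, at 207 in fasted and 203 in fed kidneys. The length used merges all annotated exons of a gene, 9.58 kb for Auh and 0.956 kb for Mcee. Undivided, Auh averaged 1983 normalized counts in fasted and 1948 in fed kidneys, and Mcee fewer, at 843 and 922.

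Of the 3 listed genes of the sulfur route, the one for the first step of transsulfuration fell. Cbs, cystathionine beta-synthase, joins homocysteine to serine (chromosome 17, 31608894 to 31637238, minus strand, with the promoter window shown above). It had 3683, 3238, 3591 and 3082 normalized counts in fasted kidneys, against 5435, 5679, 6872, 5341 and 3970 in fed kidneys. Every fasted kidney was below every fed one, with fed 5 again the lowest fed value and fed 3 the highest. Cbs fell by 0.67 on the log2 scale (SE 0.13, limma adjusted p = 0.0094), the smallest adjusted p of the 39, and it passed in all 21 alternative fits. Cth, the lyase that splits cystathionine into cysteine, averaged 3882 ± 140 in fasted and 4337 ± 517 in fed kidneys (SD), a log2 difference of -0.15 (limma adjusted p = 0.28). The ratio of Cbs to Cth normalized counts was 0.875 ± 0.057 in fasted and 1.27 ± 0.31 in fed kidneys (SD), also without a test. Ahcy, which releases homocysteine from S-adenosylhomocysteine, had a log2 difference of 0.20 (limma adjusted p = 0.12). Its reads are uncertain, because the annotated gene Gm4737 elsewhere in the genome matches it at 99.7% identity over 2083 bases.

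In the aromatic route none of the 4 genes for tyrosine breakdown passed. Hpd, which turns hydroxyphenylpyruvate into homogentisate, had 2850, 2548, 1782 and 3570 normalized counts in fasted kidneys, against 1032, 2147, 1183, 2227 and 1949 in fed kidneys. Fasted 3 lay among the fed values, and fed 1 and fed 3 were the lowest. The log2 difference was 0.68 (SE 0.26, limma adjusted p = 0.12), and its 95% interval ran from 0.11 to 1.25, the widest of the 39. The 3 later steps had smaller differences. Hgd, homogentisate dioxygenase, stood at -0.15, Gstz1, maleylacetoacetate isomerase, at 0.06, and Fah, fumarylacetoacetate hydrolase, at 0.09 on the log2 scale.

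In the lysine route, Aass encodes the bifunctional aminoadipate semialdehyde synthase that starts lysine breakdown and was the most abundant of the 39 per kilobase, at 6431 normalized counts in fasted and 5319 in fed kidneys. It had 23462, 27519, 23746 and 23466 normalized counts in fasted kidneys, against 19181, 21560, 18169, 22881 and 19728 in fed kidneys. All fasted kidneys were above all fed ones, and fasted 2 stood highest. The log2 difference of 0.28 (SE 0.09) did not pass (limma adjusted p = 0.072), and it passed with DESeq2 on the recovered reads and without fed 4. Gcdh, glutaryl-CoA dehydrogenase, had a log2 difference of 0.16 (limma adjusted p = 0.31). Aadat, the aminoadipate transaminase, had one of -0.15 (0.61).

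Proline breakdown had no gene that passed. Aldh4a1, which oxidizes the product of proline and hydroxyproline dehydrogenases to glutamate or its hydroxy form, had 10478, 11101, 11366 and 10557 normalized counts in fasted kidneys, against 13405, 15363, 13595, 15741 and 10029 in fed kidneys. Fed 5 was below all fasted kidneys, and the other 4 fed kidneys were above them. The log2 difference was -0.31 (SE 0.12, limma adjusted p = 0.12), and it passed without fed 5, with DESeq2 on the recovered reads and with voom with quality weights. Prodh, proline dehydrogenase, had a log2 difference of -0.01 and Prodh2, the hydroxyproline dehydrogenase, one of -0.12. Aldh4a1 shares 1595 exon bases with Gm21969 on the same strand.

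Got2, the mitochondrial aspartate transaminase that serves several routes, had 2759, 3145, 2694 and 2911 normalized counts in fasted kidneys, against 2999, 3071, 2830, 3032 and 2804 in fed kidneys. The groups overlapped throughout, with a log2 difference of -0.04 (SE 0.06, limma adjusted p = 0.76). Near-identical copies of Got2 are annotated elsewhere, so its reads are uncertain as well, and Hibch matches the pseudogene Gm7512 at 95% over 260 bases.

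Across all routes, the groups did not overlap for 7 of the 39 genes, with Aass above and Bcat2, Dbt, Mccc1, Pcca, Gcsh and Cbs below, against 14.3% of all tested genes (7.62% above and 6.64% below). Fed 4 held the highest fed value in 25 of the 39 genes and fed 5 the lowest in 20. How often these libraries are the extremes over all tested genes was not counted. The summed proximal tubule markers, given below, were also highest in fed 4 (696297) and lowest in fed 5 (505410) among fed kidneys. Whether the enzymes follow these markers was not tested. Among fasted kidneys no library held the highest or lowest value in more than 14.

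**Figure D3:**
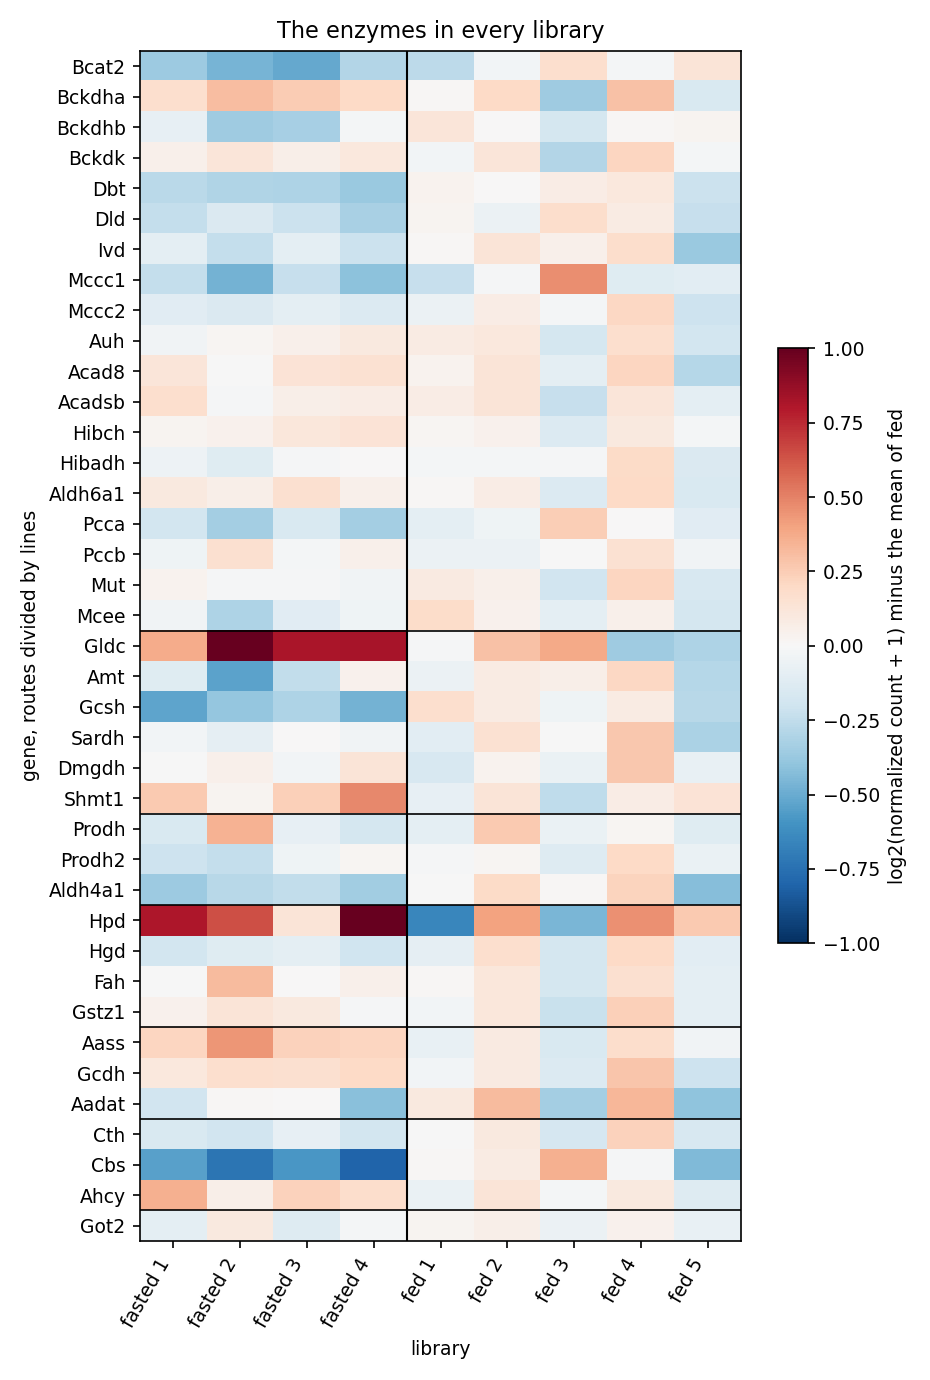
Each enzyme's log2(normalized count + 1) in each library minus its mean over the fed libraries, with fasted libraries left of fed libraries, routes divided by lines and the colour scale limited to 1 log2 unit on either side. Gldc and Hpd are above the fed mean in all 4 fasted columns, Cbs and Gcsh are below it in all 4, and the fed 4 and fed 5 columns differ in sign in many rows.

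The deposited table of the authors' own comparison was set beside these values. In the authors' deposited table, 9 of the 39 genes had an adjusted p under 0.05, against 16% of the genes with a value there, and 3 of the 9 were higher and 6 lower in fasted kidneys. The 9 were the 5 that passed here with Aass, Aldh4a1, Hpd and Pcca. Under 0.01 in the authors' deposited table, 5 of the 39 remained, against 9.45% of all, and they were Gldc, Gcsh, Bcat2, Dbt and Cbs.

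Other enzymes of the same routes, with those for histidine and for aspartate, alanine and asparagine, gave 67 genes in the table and 66 tested. Of the 66, 3 rose and 9 fell in fasted kidneys, 18.2% of them, against 11% of all genes tested. Their median log2 difference was -0.04. The count was 6 without fasted 1, without fasted 2, without fasted 3 or without fed 2. In these fits 1082, 1188, 1062 and 1157 of all tested genes passed, against 1656 with every library. The count of other enzymes was 4 without fed 1, 3 without fasted 4 and 16 without fed 5, where 1006, 861 and 1956 of all tested genes passed. Qdpr, which regenerates the cofactor tetrahydrobiopterin, had 3376, 3928, 3997 and 3675 normalized counts in fasted kidneys, against 5189, 5276, 5379, 5529 and 3829 in fed kidneys. Fed 5 lay among the fasted values, and the other 4 fed kidneys were above all fasted ones. Qdpr fell by 0.42 on the log2 scale (limma adjusted p = 0.029).

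**Figure D4:**
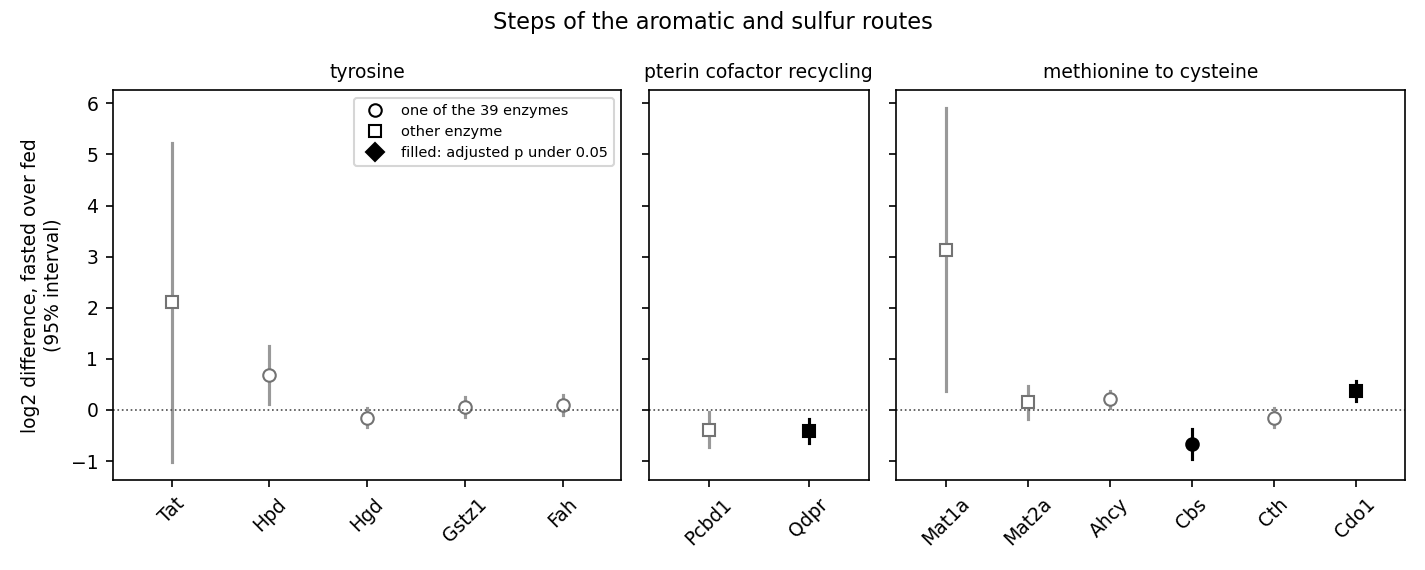
Log2 difference between fasted (n = 4) and fed (n = 5) kidneys, in log2 units, along tyrosine breakdown, the recycling of the pterin cofactor and the route from methionine to cysteine; points are limma estimates, lines their 95% intervals, circles belong to the 39 enzymes, squares are other enzymes, and filled points have an adjusted p under 0.05. Cbs stands at -0.67 and Qdpr at -0.42, while Mat1a and Tat have the widest intervals.

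Beside the glycine genes, Gcat, which cleaves the threonine product aminoketobutyrate to glycine, fell by 0.44 and Dao, the D-amino acid oxidase, fell by 0.27 on the log2 scale. In the branched-chain route Mmaa and Mmab, which prepare the cobalamin cofactor of Mut, fell by 0.38 and 0.37. Ahcyl2, listed with the sulfur genes as a relative of Ahcy rather than as a step of the route, fell by 0.54. In the sulfur route Cdo1, which oxidizes cysteine, rose with 3898 ± 516 normalized counts in fasted and 3015 ± 204 in fed kidneys (SD), a log2 difference of 0.36. Aldh18a1, which makes proline rather than breaking it down, fell by 0.45. Outside these routes Uroc1 of histidine breakdown rose by 0.38 and the asparaginase Asrgl1 by 0.56, and Ddo, the D-aspartate oxidase, fell by 0.54. The limma adjusted p-values of these 10 genes lay between 0.0115 (Ahcyl2) and 0.0446 (Mmab). Many of these calls were lost in other fits: Mmab in 12 of 21, Dao and Uroc1 in 10, Gcat in 9, Mmaa in 7, Cdo1 in 6 and Asrgl1 in 1, and Aldh18a1 in 9 of 20. Qdpr lost its call in 9 of 21, and Ahcyl2 and Ddo lost theirs in none. Bcat1, the cytosolic partner of Bcat2, had 691 ± 259 normalized counts in fasted and 1323 ± 545 in fed kidneys (SD), a log2 difference of -0.88 that did not pass (limma adjusted p = 0.14).

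Marker genes of kidney and other cells were read in the same libraries. The summed level of 12 proximal tubule markers, none of them at 0 in any library, was 452188 to 525281 normalized counts in fasted and 505410 to 696297 in fed kidneys, with Slc13a3 higher and Slc34a1 lower among the 12. Lrp2 (mean 196593 in fasted and 271792 in fed kidneys) and Slc34a1 (96907 and 147200) were the largest terms of this sum. Log2 differences were positive for Slc22a6 (0.14), Slc22a8 (0.19) and Slc13a3 (0.41) and negative for the rest of the 12. The summed level of 12 hepatocyte markers was 5805 to 14495 in fasted and 2563 to 21635 in fed kidneys, none of the 12 passed, and none was at 0 in any library. With log2 Alb as a covariate the 5 enzymes above still passed, with log2 differences of 0.68 for Gldc (limma adjusted p = 0.049) and -0.76 for Cbs (0.0071), and Hpd stood at 0.57 (0.24). With the same covariate 6 of the other enzymes passed, 2 higher and 4 lower, including a higher gene that had not passed without it. Of the other enzymes named above, 7 no longer passed. Their log2 differences with it were -0.47 for Gcat (limma adjusted p = 0.058), -0.29 for Dao (0.060), 0.31 for Cdo1 (0.075) and 0.37 for Uroc1 (0.075). They were -0.38 for Mmab (0.085), -0.37 for Mmaa (0.086) and -0.41 for Aldh18a1 (0.10). Over all tested genes, 1168 were called with this covariate, against 1656 without it. Mat1a, the liver form of methionine adenosyltransferase, had 493, 661, 1295 and 1251 normalized counts in fasted kidneys, against 5.21, 874, 429, 218 and 15.9 in fed kidneys. Its log2 difference of 3.14 did not pass. Alb itself had 3623, 1848, 7186 and 7396 normalized counts in fasted kidneys, against 251, 10091, 4321, 2524 and 402 in fed kidneys. Both genes were lowest in fed 1 and fed 5, whereas fed 3 had more Alb but less Mat1a than fasted 2. Whether Mat1a follows Alb was not tested. Of the other 9 marker lists, 4 genes passed, Slc4a1 of collecting duct (lower), Pecam1 (higher) and Kdr (lower) of endothelium and Plin1 of adipocytes (higher), and Plin1 stood at 6.51, 70.7, 1.92 and 10.7 in fasted kidneys, against 0, 1.84, 0, 0 and 0 in fed kidneys. The part of proximal tubule content in these differences was not tested. Reads per library were 18902645 to 27186745 in fasted and 19638174 to 32469467 in fed kidneys, and the ribosomal entry Rn45s took 5.53% of fed 3 and 2.36% of fasted 1, against 0.513% to 1.38% of the others.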

How the data were processed

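RNA was sequenced from kidney cortex of 9 male mice, 4 fasted and 5 fed, with 1 library per mouse, per the labels' design text. FastQC, TopHat2 2.0.9, HTSeq 0.9.1 and DESeq2 (given as version 3.5), with the builds mm10 and hg19, are named per the submitters' processing notes, and the annotation and strand setting of the counting are not given there. The deposited signal columns are counts divided by a size factor, by the authors: all 161194 values above 0 were whole multiples of a library's step within 0.01 reads, which gave the reads back. The deposited log2 fold changes, the score (fold change over its error) and the p-values are from the authors' fit. The deposited annotation tables give each term's fold enrichment, a ratio, with its p-value. No tool for them is stated.

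The 39 enzymes, the other enzymes of their routes and the 11 marker lists were chosen with earlier results of these data known. Differences were tested with limma 3.58.1 (trend on mean level, R 4.3.3) on log2(normalized count + 1) for genes averaging 10 or more, and edgeR 4.0.16 and DESeq2 1.42.0 ran on recovered reads. Enzymes given with a value in every library are those that passed and, in routes with none, the one with the smallest p. Not every other enzyme that passed is reported here, though all stay in the counts. Gene positions are GENCODE M21 (39 of 39 matched) and promoter windows are RefSeq on GRCm38.p6 (36 of 39). The fitting code was checked on simulated data with the same spread for every gene, which does not test the differences given here. Unused sample columns numbered 0.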

Additional observations from a re-analysis of the deposited data

Results flagged for a closer look

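A library far from the rest of its group was found in 8 of 102 groups examined in 51 genes, and chance flags about 1 in 20 groups. Among the 39 enzymes, fasted 2 stood high for Prodh (12143 normalized counts, next 9039), for Fah (10906, next 9106) and for Aass (27519, next 23746). Fed 3 stood high for Mccc1 (5162, next 3713) and Pcca (3845, next 3246), and fed 4 for Pccb (6804, next 6127). Among the other enzymes, fed 5 stood low for Dao (7247, next 8349) and Qdpr (3829, next 5189).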

How the results depend on the processing

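Direction and call were compared over 21 alternative fits. For the 5 enzymes that passed, 98 of 105 values kept their call and 7 lost it, none changed direction, and Cbs kept its call in all 21. For the 12 other enzymes, 178 of 251 values kept their call and 73 lost it, while Ahcyl2 and Ddo kept theirs in all 21. For the 34 that did not pass, 684 values were unchanged in call and direction, 11 newly passed and 19 changed direction, all in genes whose reported difference was within 0.1 of 0. The number of changed enzymes, 5, became 8 with DESeq2 and with voom with quality weights, 2 without fed 3 and fasted 1, and 1 at an adjusted p under 0.01, and it ran from 3 to 8 with 1 library left out. For the other enzymes, 12 became 5 with limma without a trend, 6 with log2 Alb as a covariate, 7 without fed 3 and fasted 1, and 1 at 0.01, with 3 to 16 when 1 library was left out. For all tested genes, 1656 became 2702 with voom, 1068 without fed 3 and fasted 1, and 538 at 0.01, with 861 to 1956 when 1 library was left out. The cause was not tested, except that a stricter threshold calls fewer genes by construction. Log2 differences that changed direction were -0.023 for Auh with voom, -0.018 for Acadsb and 0.014 for Prodh without fed 3 and fasted 1, and -0.011 for Dmgdh with the Alb covariate. With 1 library left out, Auh ran from -0.014 to 0.075, Hibadh from -0.080 to 0.0035, Pccb from -0.0034 to 0.074, Mut from -0.054 to 0.049, Sardh from -0.11 to 0.033, Dmgdh from -0.0043 to 0.10 and Prodh from -0.13 to 0.052. No paired analysis was possible because the labels give no replicate numbers shared by the groups. The lowest value of any of the 39 enzymes in any library was 740.4 normalized counts (Mcee in fasted 2).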

Other observations

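The authors' deposited annotation tables list pathway terms for their changed genes. Glycine, serine and threonine metabolism held 9 genes with a fold enrichment of 3.58 (p-value 0.00263, Benjamini-adjusted 0.0767 in the authors' deposited table), and Cbs and Gldc were among them. Valine, leucine and isoleucine degradation held 9 genes with a fold enrichment of 2.49 (p-value 0.0249, Benjamini-adjusted 0.341 in the authors' deposited table), and Dbt and Bcat2 were among them.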
